A study of Mus musculus with 12 samples.

Results

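The cytosolic ribosomal protein genes were taken as the protein-coding rows of the deposited gene table whose symbol begins Rpl or Rps (or names a stalk protein, Rplp) and is then only a number with at most a paralog suffix, with the ubiquitin fusion gene Rps27a left out. By this rule 81 of 54532 rows were members, 51 named for the large and 30 for the small ribosomal subunit. The rule itself reads only symbol and gene type. They were followed in cultured fibroblasts of mouse embryos (MEFs) of 4 groups with 3 libraries each: wild type without treatment, wild type after heat shock, CHIP-KO without treatment and CHIP-KO after heat shock, where heat was 1 hour at 43 °C. CHIP, encoded by Stub1, is a ubiquitin ligase that works with the HSP70 and HSP90 chaperones. The labels give the cells only as MEF with a genotype, and give no strain, and do not say whether they were 1 clone, from how many embryos they came, whether the genotypes share a strain background, or whether libraries of a group were separate cultures. P-values therefore measure only the spread between these libraries, which may be technical.

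Each ribosome holds 1 copy of nearly every ribosomal protein, the stalk proteins being the exception, and their mRNAs, made together, form one of the largest classes of mRNA in a growing cell. Most of these mRNAs begin with a C and a run of pyrimidines, the terminal oligopyrimidine (TOP) start, through which mTORC1 and LARP1 control their translation and storage. Heat shock is known to slow ribosome assembly in the nucleolus, and ribosomal proteins made in excess of rRNA are degraded by the ubiquitin system.

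RefSeq's promoter table (build GRCm38.p6) held windows from 250 bases before to 50 bases after the annotated start for 62 of the 81 members, 74 windows in all. A TOP start, here a C followed by at least 4 pyrimidines and beginning within 3 bases of the annotated start on the gene's own strand, stood in 35.1% of the member windows and in 11.5% of all 32851 windows of the table. The sequences below are shown because they mark the start of members that the results turn on, 15 bases before and 15 from the annotated start, written 5′ to 3′ on the gene's strand with the TOP tract in capitals. The first 6 have such a tract and the last 3 do not.
Rpl7a: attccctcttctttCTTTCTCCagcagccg
Rpl12: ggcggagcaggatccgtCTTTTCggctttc
Rpl14: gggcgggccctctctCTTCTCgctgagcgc
Rplp2: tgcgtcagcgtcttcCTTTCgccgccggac
Rps6: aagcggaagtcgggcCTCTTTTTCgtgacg
Rpl22l1: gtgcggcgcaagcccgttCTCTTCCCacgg
Rps2: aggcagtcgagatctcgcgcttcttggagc
Rps12: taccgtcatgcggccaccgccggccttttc
Rpl41: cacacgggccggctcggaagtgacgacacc
These lie at chr2:26910792-26910821 (plus strand), chr2:32961697-32961726 (plus), chr9:120571502-120571531 (plus), chr7:141447636-141447665 (plus), chr4:86857353-86857382 (minus), chr3:28805493-28805522 (plus), chr17:24720048-24720077 (plus), chr10:23787195-23787224 (minus) and chr10:128549154-128549183 (minus). The absence of a tract says only that these letters are not within 3 bases of this annotated start. The same member windows held the ETS-type motif CCGGAAG on either strand in 35.1% of cases (8.86% of all windows), GGGCGG in 59.5% (35.7%) and TATAAA in 9.46% (13.6%).

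The libraries held 15591924 to 26954112 fragments, as recovered from the values, with the CHIP-KO libraries mostly deeper. Stub1 checked the labels: it stood between 53.8 and 64.1 FPKM in the 6 wild-type libraries and between 0.722 and 1.17 FPKM in the 6 CHIP-KO libraries. FPKM are fragments per kilobase of listed gene length, scaled for library size. They are values relative to the scaling of each library and not amounts per cell, and levels of different genes depend on the listed lengths (383 to 6270 bases for members). Times listed length in kilobases they summed to 946546 in wild-type unheated replicate 3 and to 1055290 in CHIP-KO heated replicate 1. They were therefore not plain shares of the fragments. In bulk libraries a change in the make-up of the culture and a change in RNA per cell cannot be told apart. Of 10 fibroblast markers 8 had a mean over 1 FPKM, and none of the endothelial, epithelial, pluripotent or erythroid markers did, with Tie1, Lin28a, Zfp42, Hbb-bt and Hbb-bs at 0 throughout. The fibroblast markers summed to 1459 to 1868 FPKM in wild type without heat and 1875 to 2209.5 FPKM with it, and to 2922 to 3084 and 3271 to 3474 FPKM in CHIP-KO. Neural markers (4 of 6 over 1 FPKM) summed to 29.4 to 35.2, 21.8 to 22.2, 44.5 to 48.8 and 42.4 to 48.5 FPKM in the same order. Macrophage and leukocyte markers (2 of 7 over 1 FPKM, Adgre1 at 0) summed to 6.10 to 6.22, 14.7 to 17.6, 6.12 to 6.90 and 10.1 to 12 FPKM, and skeletal muscle markers (1 of 5, Myog and Myod1 at 0) to 0.845 to 1.23, 3.32 to 4.56, 0.535 to 0.902 and 1.88 to 2.70 FPKM. Both were higher in every heated than in every unheated library of the same genotype. The part of these markers in the results was not tested. The 2 wild-type replicates 1 stood apart from their groups (limma library weights 0.192 unheated and 0.165 heated), and counts without them are given where they differ.

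Members were among the most abundant mRNAs by FPKM. Over the 12 libraries 64 had a mean above 100 FPKM, 12 lay between 10 and 100 FPKM and 5 lay below 10 FPKM, and the median of the 78 members that could be tested was 209 FPKM. Rplp1, a stalk protein, was highest at a mean of 1763 FPKM, followed by Rplp0 at 1466 FPKM, Rpl41 at 1171 FPKM and Rps15 at 1102 FPKM. This order rests on the listed lengths, since Rplp0 (1659 bases) held more fragments than Rplp1 (499 bases) in every library. A gene was tested when at least 3 of the 12 libraries reached 1 FPKM, which 13023 genes and all but 3 members did. The 3 were Rpl10l and Rpl39l, which had 0 fragments in every library (a count of 0 allows up to 3), and Rpl3l, the striated muscle paralog of Rpl3. Rpl24 passed this filter only through heated libraries, and counts without it differ by 1 in each direction at most.

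The summed level of the 81 members differed by group. It stood at 25012, 25646 and 25844 FPKM in unheated wild type and at 20492, 24281 and 23198 FPKM in heated wild type. It stood at 21574, 21169 and 20765 FPKM in unheated CHIP-KO and at 25072, 25739 and 27049 FPKM in heated CHIP-KO. Every heated wild-type library thus lay below every unheated wild-type library, and every heated CHIP-KO library above every unheated CHIP-KO library. As a share of all fragments the directions were the same: wild type held 4.04% to 4.21% without heat and 3.22% to 3.83% with it, CHIP-KO 3.35% to 3.49% without heat and 3.77% to 4.09% with it. As a share of summed FPKM it was not: heated CHIP-KO held 7.26% to 7.52% and unheated CHIP-KO 7.48% to 7.73%. Beside this stands 1 row, Gm23935, listed as a miRNA gene of 57 bases, which held 2.52% to 4.67% of the FPKM sum in unheated and 12.4% to 17% in heated libraries.

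**Figure D1:**
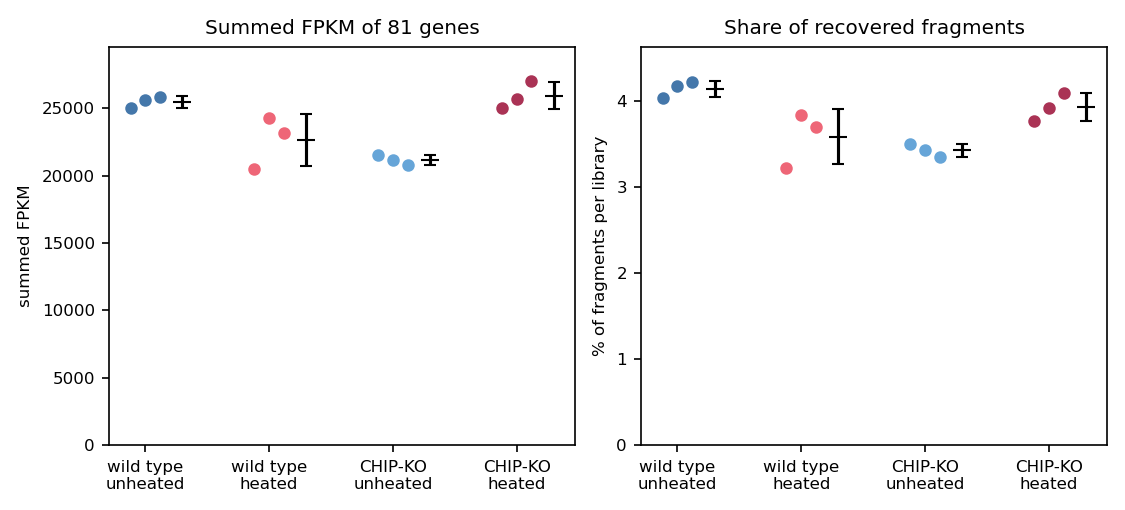
Summed FPKM (left) and share of fragments in percent (right) of the 81 ribosomal protein genes, 1 point per library, with the mean and SD of each group of 3 beside the points. Heated wild type lies below unheated wild type and heated CHIP-KO above unheated CHIP-KO in both panels, while as a share of summed FPKM heated CHIP-KO (7.26% to 7.52%) does not lie above unheated CHIP-KO (7.48% to 7.73%).

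In wild-type cells heat lowered a subset of the members. By limma on log2(FPKM + 1), with Benjamini-Hochberg adjustment over 13023 genes and a call at adjusted p under 0.05, 25 of 78 fell and 4 rose, where 30.5% of all tested genes were called lower and 28.1% higher. The share that fell, 32.1%, was thus close to the background in the values as deposited, and the share that rose, 5.13%, was below it. Under quantile normalization 41 fell (52.6%, against 33.5% of all genes), and with an equal sum per library 55 fell (70.5%, against 47.3%), so the distance from the background depends on the scaling. The median log2 change of the members was -0.13, beside -0.02 over all tested genes, and 58 of 78 changes were negative. Between the 3 unheated and 3 heated libraries 26 members did not overlap in the lower direction (31.1% of all genes) and 4 in the higher (29.3%). Fitted on the 2 groups alone, 13 fell and 4 rose, with the shares of all genes not given here.

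The largest falls in wild type were those of Rps2, Rpl22l1, Rpl12, Rpl8 and Rpl14. Rps2, which lies near the mRNA entry channel of the small subunit, stood at 1339.8, 1238 and 1156 FPKM without heat, then 709, 776 and 834 FPKM heated. The heated libraries all lay below the unheated ones, at 0.621 of the unheated level (log2 change -0.69, SE 0.0776, adjusted p = 2.41e-05 by limma). Rpl8, a large subunit protein near the peptidyl transferase centre, stood at 1178, 1051 and 999 FPKM without heat, then 692, 790.0 and 808 FPKM heated, again without overlap (log2 change -0.49, SE 0.0832, adjusted p = 0.000407 by limma). Rpl12, at the base of the stalk, went from 231, 173 and 173 to 111, 137 and 128 FPKM (log2 change -0.61, SE 0.107, limma adjusted p = 0.000577). Its unheated replicate 1 was higher than the other unheated libraries, and the call held with any 1 library left out. Rpl14 went from 253, 239.9 and 236 to 164, 191 and 184 FPKM, a log2 change of -0.44 (SE 0.0635, adjusted p = 0.000145 by limma).

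The other members that fell in wild type were Rps12, Rps13, Rps25, Rpl41, Rplp1, Rps27l, Rps6, Rplp2, Rpl15, Rpl11, Rpl7l1, Rpl6, Rpl13, Rpl27a, Rps9, Rpl18, Rpl35, Rps23, Rpl4 and Rpl3, with log2 changes down to the smallest call of -0.18. Those that rose were Rps10, Rpl24, Rpl13a and Rpl22. Rpl22, an RNA-binding protein of the large subunit, stood at 83.6, 84.6 and 83.0 FPKM without heat, then 92.0, 98.0 and 105 FPKM heated (log2 change 0.23, SE 0.0584, adjusted p = 0.00576 by limma), but changed by -0.01 when libraries were scaled to an equal sum of FPKM, a scaling that put the median of all tested genes at -0.24. Rows of 3 of these 4, all but Rpl22, overlap other genes and are taken up below.

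In CHIP-KO cells the members went the other way with heat in the values as deposited. Of 78, 39 rose and 0 fell, against 8.65% of all tested genes called higher and 11.4% called lower. Under quantile normalization 7 rose (8.97%, against 7.47% of all genes) and 2 fell (2.56%, against 13.9%). With libraries scaled to an equal sum of FPKM 3 rose (3.85%, against 4.49%) and 8 fell (10.3%, against 62.4%). The median log2 change as deposited was 0.28, beside 0.00 over all genes. It was 0.03 beside -0.03 under quantile normalization, and -0.05 beside -0.32 with an equal sum, so the members lay 0.29, 0.06 and 0.27 above the median of all genes under the 3 scalings. Scaled to an equal sum over protein-coding rows, which leaves Gm23935 out, 11 rose and 1 fell at a median of 0.16 beside -0.11. These were 14.1% higher and 1.28% lower, against 5.65% and 26.2% of all genes. No overlap in the higher direction was found for 70 of 78 members as deposited, where 22.8% of all genes had none (the median of the members turns with an equal sum per library), and 77 of 78 changes were positive. The changes were close together: the middle part of the members, between the quartiles, spanned 0.25 to 0.36 on the log2 scale, against -0.26 to 0.00 for heat in wild type.

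The count in CHIP-KO also moved with single libraries. Without CHIP-KO unheated replicate 1, 2 or 3 it was 22, 20 or 13, without CHIP-KO heated replicate 2 or 3 it was 19 or 16, and without wild-type unheated replicate 1, which adds to the spread all groups share, it was 61. With both wild-type replicates 1 left out it was 68, and 65 with the 2 CHIP-KO groups alone. In each of these fits 0 members fell, and shares of all genes are not given for them here. Of 13 members that rose and that the naming rule covers in this comparison, 4 (Rps10, Rpl22, Rpl3 and Rplp2) were called with any 1 library left out. Rps2 and Rps13, which also rose, are outside that tally.

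Rps13, which lies at the side of the small subunit that faces the large one, stood at 84.0, 84.1 and 80.8 FPKM in unheated, then 101, 101 and 102 FPKM in heated CHIP-KO libraries (log2 change 0.28, SE 0.0511, limma adjusted p = 0.0033, as deposited). In wild type the same gene went from 96.9, 93.7 and 90.5 to 69.0, 73.1 and 77.4 FPKM (log2 change -0.35, adjusted p = 0.000141 by limma). The unheated CHIP-KO libraries lay below the unheated wild-type ones, and after heat all 3 CHIP-KO libraries lay above all 3 wild-type ones. With a mean of at least 5 FPKM, the largest rises in CHIP-KO as deposited were those of Rps10, Rpl21, Rpl7a, Rps21 and Rpl13a. Rpl21 stood at 35.1, 25.3 and 16.8 FPKM without heat, then 51.6, 54.4 and 44.5 FPKM heated, a log2 change of 0.99 (SE 0.266, adjusted p = 0.0236 by limma). That call was lost without CHIP-KO unheated replicate 2 or 3, or heated replicate 1 or 2 (log2 change 0.724 to 1.01, adjusted p 0.0629 to 0.0917). Rpl7a, a large subunit protein, went from 80.8, 86.7 and 64.3 to 92.4, 125 and 128 FPKM (log2 change 0.56, SE 0.168, limma adjusted p = 0.0368), and lost its call without CHIP-KO unheated replicate 1 or 3 or heated replicate 2 or 3 (adjusted p 0.0733 to 0.141). Together with its 12 pseudogene rows, Rpl7a held 168.8, 185.2 and 137.7 of each 1000000 fragments in unheated CHIP-KO. After heat the sums were 180, 241.4 and 265.5, so the 2 groups overlapped in the sum. Rps21 went from 256, 259 and 203 to 288, 326 and 367 FPKM (log2 change 0.45, SE 0.142, limma adjusted p = 0.0461), and lost its call in 8 of the 12 fits that leave out 1 library.

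Both heat changes come from different libraries, so their calls can be crossed. Among the 78 members, 14 fell in wild type and rose in CHIP-KO as deposited, a pair of calls that 115 of all 13023 tested genes (0.883%) had. They were Rps2, Rpl14, Rps13, Rplp1, Rplp2, Rpl11, Rpl13, Rpl27a, Rps9, Rpl18, Rpl35, Rps23, Rpl4 and Rpl3. Another 11 fell in wild type without a call in CHIP-KO, 21 rose in CHIP-KO without a call in wild type, and 4 rose in both. No member fell in both. Across the 78 members the Spearman correlation of the 2 heat changes was 0.23, a description over genes that share libraries.

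**Figure D2:**
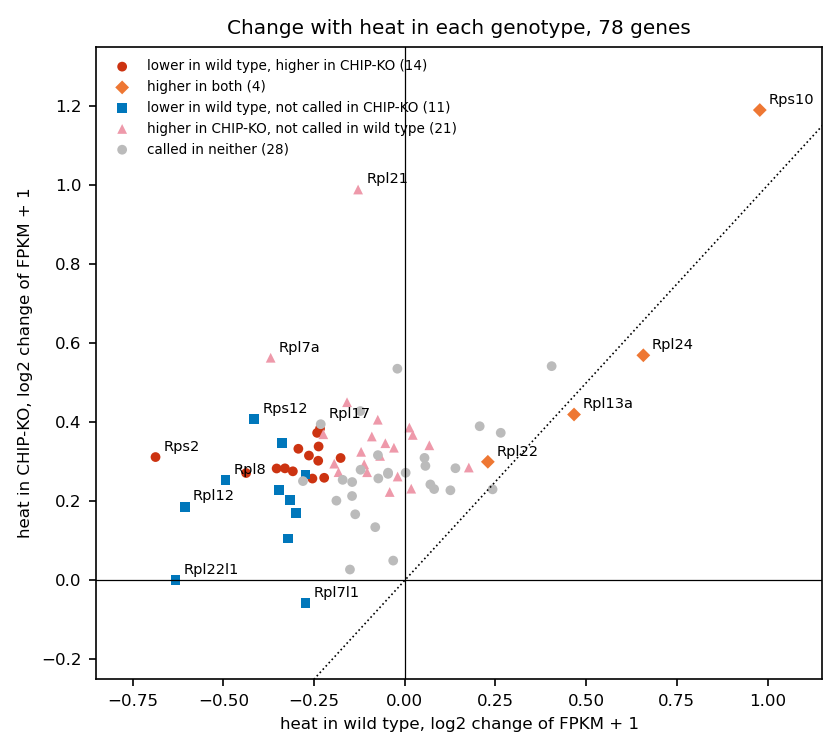
Log2 change of FPKM + 1 with heat in wild type (horizontal) against CHIP-KO (vertical), 1 point per tested member, with calls by limma at adjusted p under 0.05 and the number of members in each class. All but 3 points lie above the dotted line of equal change, and the 14 red points fell in wild type and rose in CHIP-KO in the values as deposited. The rises in CHIP-KO depend on the scaling, with 7 members higher and 2 lower under quantile normalization (7.47% and 13.9% of all tested genes). With an equal sum 3 were higher and 8 lower (4.49% and 62.4% of all tested genes).

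The difference between the heat changes is the genotype by heat interaction (heat change in CHIP-KO minus heat change in wild type). It was higher for 44 of 78 members and lower for 0, against 17.9% and 17.3% of all tested genes (35.2% in either direction). The median was 0.40 on the log2 scale, beside 0.00 over all genes, and 75 of 78 values were positive. The exceptions were Rps27, Rpl13a and Rpl24, at -0.01, -0.05 and -0.09. Unlike the heat change in CHIP-KO alone, the interaction kept its direction under every scaling tried. It was higher for 29 and lower for 0 under quantile normalization (18% of all genes higher). With an equal sum it was higher for 38 and lower for 0 (13.4% of all genes higher). With an equal sum over protein-coding rows it was higher for 36 and lower for 0 (13.7% of all genes higher). The median lay 0.26 to 0.41 above that of all genes under these scalings. Large and small subunit genes did not stand apart in the counts, with 27 of 48 and 17 of 30 higher and medians of 0.40 and 0.42.

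The largest interactions were those of Rpl21, Rps2, Rpl7a, Rps12 and Rpl12. For Rps2 the interaction was 1.00 (SE 0.110, adjusted p = 5.81e-05 by limma): it fell with heat in wild type, as above, while in CHIP-KO it stood at 617, 607 and 642 FPKM without heat, then 746, 767 and 805 FPKM heated. After heat the 2 genotypes overlapped at 709 to 834 and 746 to 805 FPKM. For Rps12 it was 0.82 (SE 0.190, adjusted p = 0.00614 by limma), with levels of 231, 211 and 241 FPKM in unheated, then 152, 192 and 169 FPKM in heated wild type. In CHIP-KO Rps12 stood at 140.5, 129.7 and 138 FPKM without heat, then 155, 165 and 231 FPKM heated, where replicate 3 was well above the others. For Rpl12 it was 0.79 (SE 0.152, adjusted p = 0.00214 by limma), mainly through wild type, since CHIP-KO stood at 174, 175 and 170.3 FPKM without heat, then 202, 198 and 192 FPKM heated. Rpl7a had an interaction of 0.93 (SE 0.237, adjusted p = 0.0105 by limma). For Rpl21 it was 1.12 (SE 0.376, adjusted p = 0.0391 by limma), but its heated wild-type libraries ranged from 37.3 to 76.6 FPKM and the call was lost in 10 of the 12 fits without 1 library (adjusted p 0.0501 to 0.0826). Pseudogene rows held 41.7% of the fragments of Rpl21 and its pseudogenes. Together these rows came to 307 ± 28.9 of each 1000000 fragments in unheated and 294 ± 75.1 in heated wild type, and to 198 ± 29.2 and 276 ± 17.3 in CHIP-KO (mean ± SD, n = 3), so the changes of the Rpl21 row were larger than those of the sum.

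**Figure D3:**
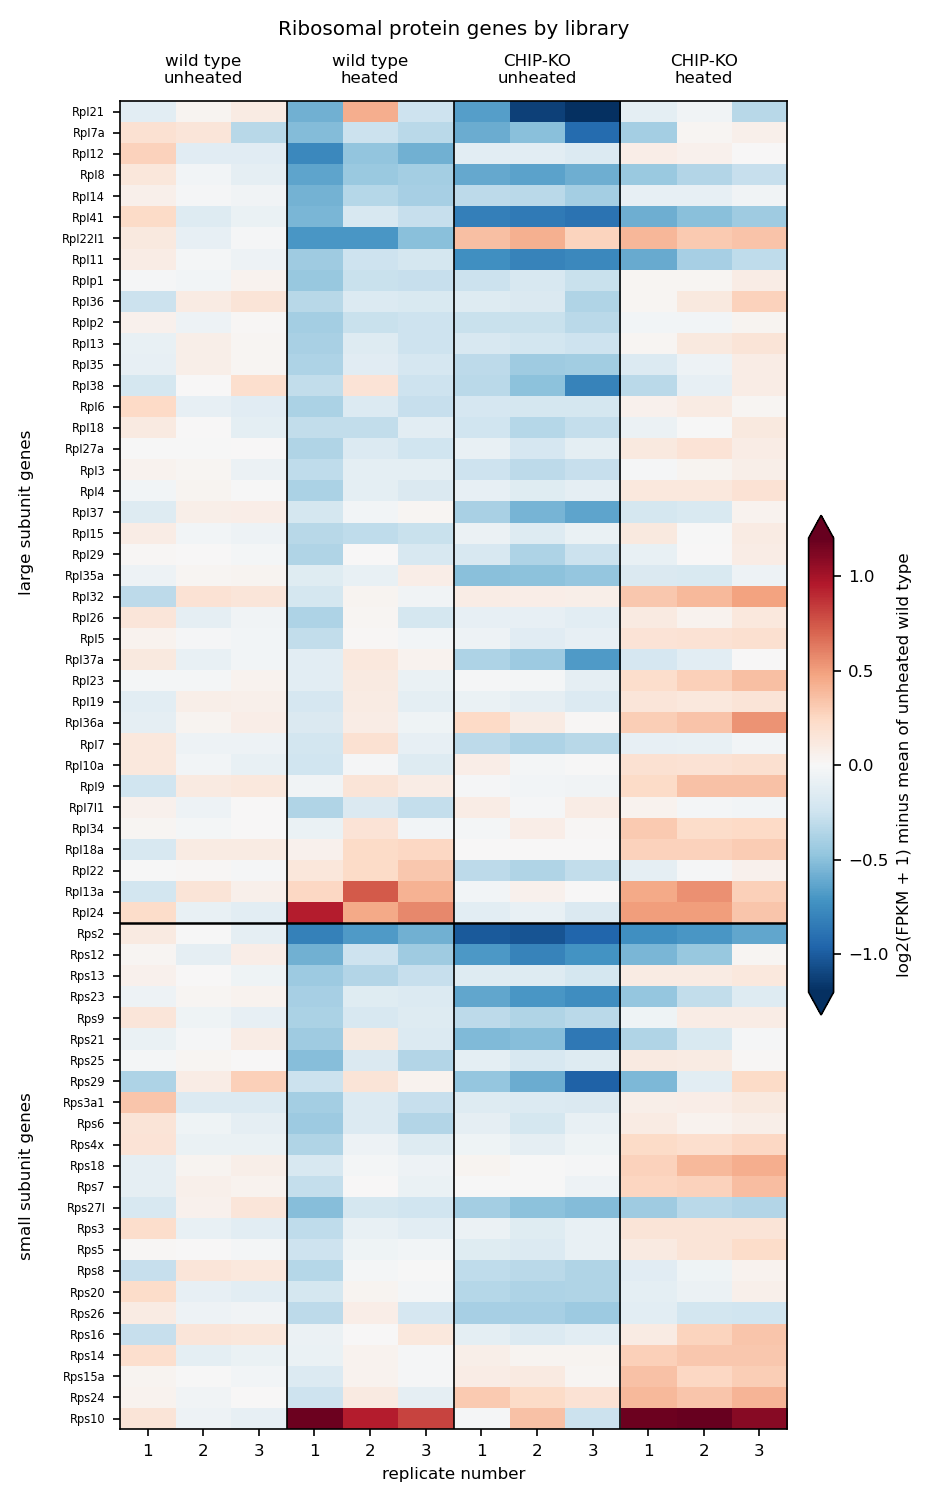
Log2(FPKM + 1) of the 63 members called in at least 1 comparison, in each of the 12 libraries, minus the mean of the 3 unheated wild-type libraries of that gene; blue is lower and red higher, and the colour scale ends at 1.2 in both directions. Within each subunit genes are ordered by interaction, and columns are replicates 1 to 3 of each group; heated wild type and unheated CHIP-KO are mostly blue, and heated CHIP-KO is near or above the unheated wild-type level for most genes in the values as deposited.

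Without heat, CHIP-KO cells held lower levels of many members than wild type: 30 of 78 were lower and 2 higher, against 24.5% and 23.9% of all tested genes. The median log2 difference was -0.13, beside -0.01 over all genes, and 37 members lay below wild type without overlap (31.1% of all genes) and 2 above (30.1%). With both wild-type replicates 1 left out, 47 were lower and 3 higher, with the shares of all genes not given here. The 5 largest deficits were those of Rpl21, Rps2, Rpl41, Rpl11 and Rps12. Rps2 stood at 0.501 of the wild-type level (SE of the log2 difference 0.0776, adjusted p = 1.36e-06 by limma). It lies 1.11 megabases from Stub1 on chromosome 17 (24718116 to 24721929, plus strand). Rpl41, which encodes a very short peptide bridging the subunits, stood at 1797, 1375 and 1451 FPKM in wild type and 864, 852 and 828 FPKM in CHIP-KO (log2 difference -0.85, SE 0.113, adjusted p = 9.27e-05 by limma). The 2 that were higher were Rpl22l1 and Rps24. Rps24 stood at 75.2, 70.8 and 73.3 FPKM in wild type and 91.3, 85.9 and 82.8 FPKM in CHIP-KO (log2 difference 0.24, SE 0.0798, limma adjusted p = 0.0267), a call lost without wild-type unheated replicate 2 or 3 or CHIP-KO unheated replicate 1 or 2 (adjusted p 0.0565 to 0.0992).

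After heat the order was reversed: 34 of 78 members were higher in CHIP-KO than in wild type and 1, Rpl22, was lower, against 23.3% and 19.1% of all tested genes (42.4% in either direction). The median log2 difference was 0.24, beside 0.01. Under quantile normalization and both equal sums it was 0.15 to 0.18, with 25 to 32 members higher (32.1% to 41%, against 18.2% to 22.2% of all genes). Under median-of-ratios size factors it was 0.24 with 34 higher. In 43 members the CHIP-KO libraries lay above wild type without overlap (27.7% of all genes) and in 1 below (22.7%). The 5 with the largest difference were Rpl22l1, Rpl12, Rpl32, Rps13 and Rps24. Rpl32 stood at 381, 450.2 and 429 FPKM in heated wild type and 551, 579 and 618 FPKM in heated CHIP-KO (log2 difference 0.47, SE 0.118, adjusted p = 0.00773 by limma). Rps24 stood at 61.3, 79.0 and 67.8 against 96.0, 92.4 and 97.1 FPKM (log2 difference 0.46, SE 0.0798, adjusted p = 0.000806 by limma).

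These 2 comparisons share no library. Between them 8 members changed from lower to higher in CHIP-KO (Rplp1, Rplp2, Rpl3, Rpl13, Rpl14, Rpl18, Rps9 and Rps13), a pair of calls that 3.94% of all tested genes had. Another 21 were lower without heat and not called after it, 24 were higher after heat only, Rpl22 was lower in both and Rpl22l1 and Rps24 were higher in both.

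**Figure D4:**
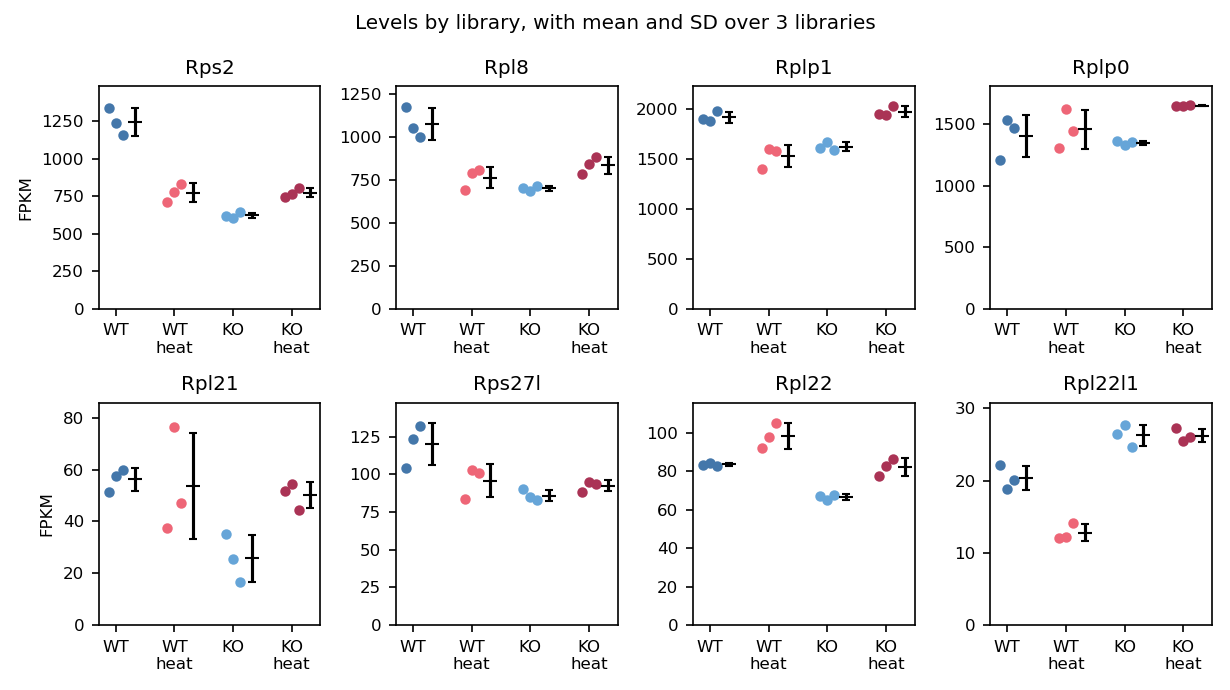
FPKM of 8 members by library (points, replicates 1 to 3 from left to right) with the mean and SD of 3 libraries beside them; WT is wild type and KO is CHIP-KO. Rps2, Rpl8, Rplp1 and Rps27l are lower in heated than in unheated wild type, Rplp0 overlaps there, and Rpl22l1 is the one of these 8 that is higher in CHIP-KO under both conditions.

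By role, the stalk proteins recruit the translation factors that hydrolyse GTP. Rplp1 stood at 1899, 1879.6 and 1979 FPKM in unheated, then 1400.3, 1599 and 1586 FPKM in heated wild type, and at 1608, 1676 and 1591 FPKM in unheated, then 1949, 1947 and 2037 FPKM in heated CHIP-KO. It fell in wild type (log2 change -0.33, SE 0.0712, adjusted p = 0.00208 by limma), and its interaction was 0.61 (adjusted p = 0.000781). Rplp2, its dimer partner, had nearly the same changes, from 216, 199 and 211 to 157, 173 and 175 FPKM in wild type and from 174, 173 and 166 to 204, 204 and 214 FPKM in CHIP-KO, with an interaction of 0.58 (SE 0.0809, adjusted p = 0.000266 by limma). Rplp0, the scaffold that anchors them, had an interaction of 0.23 that missed the threshold (SE 0.141, adjusted p = 0.228 by limma) and was called in none of the 5 comparisons. Rplp0 libraries of wild type spread from 1211 to 1536 FPKM unheated and from 1309 to 1626 FPKM heated.

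Rpl5 and Rpl11 bind the smallest rRNA of the large subunit and, when free, inhibit the p53 ligase MDM2. Rpl11 stood at 193, 179 and 174 FPKM in unheated wild type, 135, 153 and 157 FPKM heated, 109, 104 and 106 FPKM in unheated CHIP-KO and 119, 138 and 147 FPKM heated. It fell in wild type (log2 change -0.29, SE 0.0838, adjusted p = 0.0108 by limma) and was lower in unheated CHIP-KO (log2 difference -0.77, SE 0.0838, adjusted p = 2.08e-05 by limma). Rpl5 stood at 184, 176 and 174, then 145, 180.1 and 174 FPKM in wild type, and at 171, 162 and 166, then 200.1, 200.4 and 204 FPKM in CHIP-KO. Neither its heat change in wild type (-0.10, adjusted p = 0.251) nor its unheated genotype difference (-0.10, adjusted p = 0.31) passed the limma threshold. Its interaction did, at 0.38 (SE 0.105, adjusted p = 0.0164 by limma).

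Among other much studied members, Rps6, the main phosphorylated protein of the small subunit, stood at 433, 377 and 362 FPKM in unheated, then 288, 348 and 305 FPKM in heated wild type (log2 change -0.32, SE 0.0839, adjusted p = 0.00728 by limma). Its CHIP-KO levels, 362, 337 and 365 FPKM without heat, then 416, 400.0 and 409 FPKM heated, were not called (0.20, adjusted p = 0.116), and the interaction was 0.52 (adjusted p = 0.00597). Rps25, needed for initiation at some viral entry sites, had 109, 112 and 111 FPKM in wild type before heat, 77.1, 97.9 and 86.3 FPKM after it, and in CHIP-KO 102, 96.9 and 99.2, then 119, 119 and 111 FPKM. Its interaction was 0.58 (SE 0.105, adjusted p = 0.00159 by limma). Rps3, which also acts in DNA repair, had one of 0.43 (SE 0.123, adjusted p = 0.0199 by limma). Rps14 (0.28, adjusted p = 0.066), Rps19, which is mutated in Diamond-Blackfan anaemia (0.27, adjusted p = 0.288), and Rpl38, linked to Hox mRNA translation (0.55, adjusted p = 0.0891), missed the limma threshold for the interaction. Rps19 stood at 56.9 FPKM in wild-type unheated replicate 1 and at 84.4 and 86.8 FPKM in the others. Rpl38 was lower in unheated CHIP-KO (log2 difference -0.54, SE 0.164, adjusted p = 0.0185 by limma), a call lost without wild-type unheated replicate 3 or CHIP-KO unheated replicate 3 (adjusted p 0.0705 and 0.0806).

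Paralogs were measured beside their partners. Rpl22l1, the paralog that Rpl22 represses, stood at 22.2, 18.9 and 20.1 FPKM in unheated wild type and 12.1, 12.2 and 14.1 FPKM heated, a fall of 0.63 on the log2 scale (log2 change -0.63, SE 0.0739, adjusted p = 3.06e-05 by limma). In CHIP-KO it stood at 26.4, 27.6 and 24.7 FPKM without heat, then 27.2, 25.5 and 26.0 FPKM heated, with a log2 change of 0.00 (adjusted p = 1). It was therefore 1.98 times as high in heated CHIP-KO as in heated wild type (log2 difference 0.98, adjusted p = 1.41e-06 by limma). Rpl22 itself was lower in CHIP-KO, at 67.1, 64.9 and 67.9 FPKM unheated (log2 difference -0.32, adjusted p = 0.00084 by limma). As a percentage of Rpl22, Rpl22l1 stood at 24.4 ± 2.11 in unheated wild type, 13.0 ± 0.501 in heated wild type, 39.4 ± 3.11 in unheated CHIP-KO and 31.9 ± 2.76 in heated CHIP-KO (mean ± SD, n = 3).

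Rps27l, a p53 target, fell with heat in wild type from 105, 124 and 132 to 83.4, 103 and 101 FPKM (log2 change -0.32, SE 0.0964, limma adjusted p = 0.0137), a call lost without wild-type unheated replicate 3 (-0.252, adjusted p = 0.0568). It was lower in unheated CHIP-KO at 90.1, 84.8 and 82.8 FPKM (log2 difference -0.47, adjusted p = 0.00192 by limma). Its partner Rps27 spread from 122 to 182 FPKM in unheated wild type and was called in no comparison. Rpl7l1 fell in wild type from 39.4, 36.5 and 38.3 to 29.4, 33.6 and 31.0 FPKM (log2 change -0.27, SE 0.0578, adjusted p = 0.00183 by limma) and was, as deposited, the one tested member with a negative heat change in CHIP-KO, at -0.06 (adjusted p = 0.535). Rpl7 stood at 294, 258 and 258 FPKM in unheated wild type against 217, 208 and 215 FPKM in unheated CHIP-KO (log2 difference -0.34, SE 0.0924, adjusted p = 0.0105 by limma). Rpl3, at the peptidyl transferase centre, had an interaction of 0.49 (adjusted p = 0.00153), Rps4x one of 0.49 (adjusted p = 0.00976), and Rpl10 and Rpl39 were called in no comparison by limma.

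Rpl3l was listed at 0, 0.0311 and 0.0287 FPKM in unheated wild type and 2.37, 1.63 and 0.766 FPKM in heated wild type. In CHIP-KO it was listed at 0.0974, 0.135 and 0.0787 FPKM without heat, then 0.477, 0.760 and 0.449 FPKM heated. All heated libraries lay above all unheated ones, but only 2 reached 1 FPKM. Rpl3l lies 5890 bases downstream of the listed end of Rps2 on the same strand of chromosome 17. The row Rps4l, a transcribed processed pseudogene and not a member, was listed at 0 in 5 of 6 wild-type libraries and at 0.0542 FPKM in the sixth. In the 6 CHIP-KO libraries it stood between 13.4 and 16.1 FPKM. Rps2-ps6, a processed pseudogene, was listed at 0.424 to 2.67 FPKM in the 6 wild-type and at 21.5 to 56.9 FPKM in the 6 CHIP-KO libraries. Whether strain background has a part in these or other genotype differences was not tested.

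Several rows are uncertain, because members have many near-identical pseudogenes and the counting tool is not given in the sources used here. For 57 members the table held 277 rows named as their pseudogenes, whose fragments came to 2.73% ± 0.304 of the number in member rows in unheated wild type and 3.54% ± 0.0848 in unheated CHIP-KO. Rps10 was the extreme: its own row stood at 1.47 to 2.79 FPKM in unheated, then 4.19 to 6.75 FPKM in heated libraries, while 94.7% of the fragments of the gene and its pseudogenes lay in pseudogene rows, chiefly Rps10-ps2. Gene and pseudogene rows together gave 149.9 ± 7.39 of each 1000000 fragments in unheated and 136 ± 12.5 in heated wild type, and 168 ± 6.79 and 173 ± 7.66 in CHIP-KO (mean ± SD, n = 3), so the rise of the Rps10 row with heat was not seen in the sum. The Rps10 row also shares 475 bases of exon with the read-through gene RPS10-NUDT3, Rpl24 shares 484 with Gm28037 and Rpl13a shares 621 with Gm45713, and all 3 partner rows were at 0 in every library. Rpl24 stood at 0.418 to 2.06 FPKM and Rpl13a at 22.5 to 44.5 FPKM, below the median member. For Rps2 the pseudogene rows were higher in unheated CHIP-KO (211 ± 23.0 of each 1000000 fragments) than in wild type (111 ± 15.9), and gene and pseudogenes together stood at 2467 ± 109 in unheated wild type, 1501 ± 124 heated, 1374 ± 37.5 in unheated CHIP-KO and 1556 ± 22.8 heated. The 3 unheated CHIP-KO libraries still lay below the 3 unheated wild-type ones.

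By limma, 15 members were called in none of the 5 comparisons, among them Rplp0, Rps15, Rpl10, Rpl17, Rps27, Rpl39 and Rps19. Some of these had wide spread. Rpl17, with 52.3% of its fragments in pseudogene rows, ranged from 75.4 to 266 FPKM in heated wild type. The other 63 tested members were called at least once.

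Tested members were also counted by whether they had a TOP start. Of the 59 tested members with a promoter window, 25 had a TOP start within 3 bases and 34 did not, and the interaction was higher for 17 and 19 of them, at medians of 0.51 and 0.38. With heat in wild type 12 and 10 fell, at medians of -0.23 and -0.13, and in CHIP-KO, as deposited, 15 and 15 rose at medians of 0.30 and 0.28, a direction that turns with the scaling for the members as a whole. The difference between the sets was not tested. Rps2 and Rps12, with 2 of the 5 largest interactions, had no tract beginning within 3 bases of the annotated start, and Rpl7a and Rpl12 had one. In the printed sequences of Rps2 and Rps12 a C followed by at least 4 pyrimidines begins further downstream.

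Other genes of ribosome production were counted beside the members, with no test between the sets. For heat in wild type their counts, here and in the next paragraph, stand against 28.1% of all tested genes higher and 30.5% lower. For heat in CHIP-KO these shares were 8.65% and 11.4% as deposited, 7.47% and 13.9% under quantile normalization and 4.49% and 62.4% with an equal sum. For CHIP-KO against wild type they were 23.9% and 24.5% without heat and 23.3% and 19.1% after it. For the interaction they were 17.9% and 17.3%. Of 90 tested ribosome assembly factors 73 fell and 2 rose with heat in wild type, at a median log2 change of -0.46, beside -0.13 for the members. In CHIP-KO 6 rose and 1 fell at a median of 0.03 as deposited, where equal-sum scaling gives 0 and 67. In CHIP-KO against wild type 49 were lower and 4 higher without heat, and 51 higher and 1 lower after it, at a median of 0.28. The interaction was higher for 64 and lower for 0, at a median of 0.50. In these 3 comparisons the factors went the way the members did. Rrp12, a nucleolar export factor, went from 11.3 to 3.47 FPKM in wild type (means of 3; log2 change -1.46, SE 0.0620, adjusted p = 2.36e-08 by limma) and from 6.94 to 7.10 FPKM in CHIP-KO. Bysl, of the small subunit pathway, went from 13.8 to 5.85 and from 10.7 to 10.5 FPKM, with an interaction of 1.09 (adjusted p = 1.52e-05 by limma).

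Of 77 mitochondrial ribosomal protein genes, 51 fell and 2 rose in wild type at a median of -0.28, 50 were lower and 3 higher in unheated CHIP-KO, and the interaction was higher for 33 and lower for 1. In heated CHIP-KO 4 rose and 1 fell as deposited, at a median of 0.04, and 0 rose and 63 fell with an equal sum. A fixed list held 15 mRNAs outside the ribosome taken as TOP mRNAs, and whether they had a TOP start as defined above is not given here. Of these, 4 rose and 5 fell in wild type, shares of 26.7% and 33.3% near those of all genes. In CHIP-KO 9 rose as deposited, among them the elongation factor Eef2, and 0 rose under quantile or equal-sum scaling. Of 7 ribosomal proteins with other names, among them Rpsa and Rack1, 5 rose in CHIP-KO as deposited (1 with an equal sum, 2 under quantile normalization) and the interaction was higher for those 2. Among 13 regulators of TOP mRNAs 8 fell and 0 rose in wild type. They included Larp1, from 40.3 to 22.6 FPKM (log2 change -0.80, SE 0.0804, adjusted p = 9.65e-06 by limma), and Eif4ebp1, from 45.6 to 23.5 FPKM, with interactions of 0.53 and 0.84 (adjusted p = 0.00434 and 0.000144). Of 20 genes listed for RNA polymerase I and its factors 10 fell and 1 rose in wild type. That list also holds subunits named for RNA polymerase II, such as Polr2l, its largest fall (log2 change -0.75). Of 15 import and quality control partners of ribosomal proteins 11 fell and 0 rose in wild type, among them the importin Ipo5, from 53.2 to 27.8 FPKM.

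Length and level were measured beside these values. Tested protein-coding genes with a listed length under 1500 bases, members left out (757 genes), had a median heat change of 0.07 in CHIP-KO and 0.02 in wild type as deposited. Those with a mean over 100 FPKM, members left out (315 genes), had 0.11 and 0.04, with 18.7% called higher in CHIP-KO. The corresponding member medians were 0.28 and -0.13. Of those 315 genes 36.2% were lower and 28.6% higher in unheated CHIP-KO than in wild type, beside 38.5% and 2.56% of members. After heat 36.5% were higher and 15.2% lower in CHIP-KO, beside 43.6% and 1.28% of members. Their interaction was higher for 34.9% and lower for 20%, beside 56.4% and 0% of members. The part of length and level in the results was not tested.

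**Figure D5:**
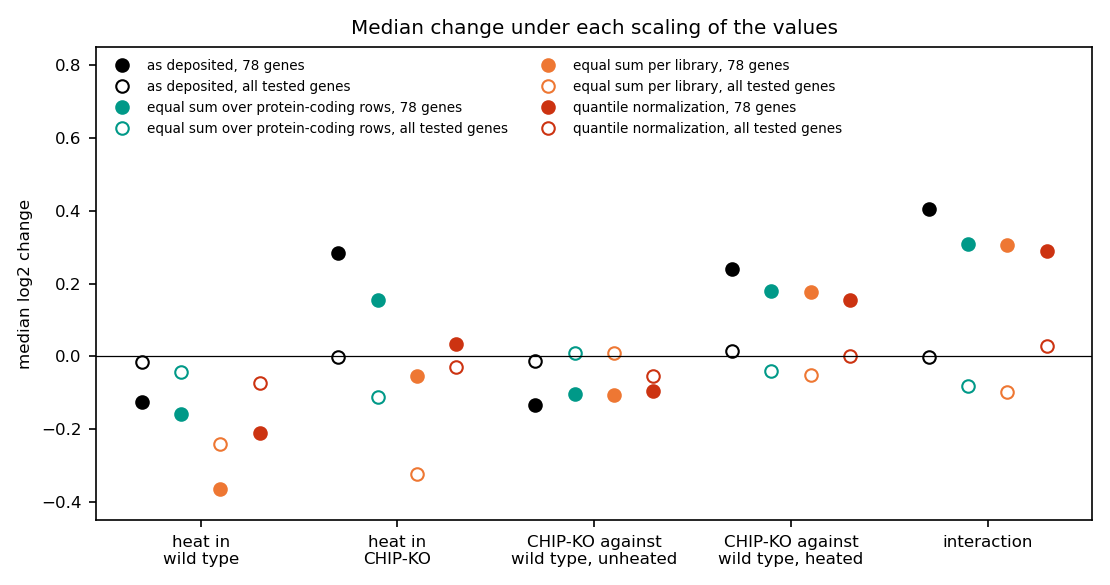
Median log2 change of the 78 tested members (filled) and of all 13023 tested genes (open) in each comparison, with the values as deposited and under 3 other scalings of the libraries. The median of the members for heat in CHIP-KO goes from 0.28 to -0.05 with the scaling, while the interaction stays between 0.29 and 0.40 and the members lie on the same side of all genes in every comparison.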

How the data were processed

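RNA from 12 MEF libraries was sequenced after poly(A) capture, per the labels' protocols. The authors deposited 1 table of FPKM per gene and library. HISAT2 aligned the reads (per the submitters' processing notes). Its version, how fragments were counted, which annotation was used and the scaling basis were not given in the sources used here. Listed positions of 79 of 81 members were those of GENCODE M21 (GRCm38). FPKM times listed length came out, in each library, at whole multiples of 1 value, within 0.01 for 100% of values above 0, which gave the fragments; a count of 0 allows up to 3, for counting error only. From the deposited FPKM, log2(FPKM + 1) was computed for genes with at least 1 FPKM in at least 3 of 12 libraries and fitted with limma 3.58.1 (R 4.3.3; 1 mean per group, trend of variance, two-sided, 5 contrasts, Benjamini-Hochberg over 13023 genes). Fold changes, being of log2(FPKM + 1), are understated for low genes. The fit was tested on simulated data. The members and lists were chosen with earlier results of these data known. Members named with values were the 5 largest rises and falls per comparison past the threshold with a mean of at least 5 FPKM in the higher group and no overlap (not required for the interaction), fixed members by role, and up to 3 per list; Rps13, Rps10, Rpl24, Rpl17, Rps15 and the pseudogene rows were also given in other comparisons after their values were seen. Alternatives covered the pseudocount, filter, scaling, library weights, the replicate number, groups fitted alone and libraries left out. Chosen only after seeing the data were an equal sum over protein-coding rows, limma's voom on recovered fragments, and both heated replicates 1 left out. Promoter windows are RefSeq's. Figures used matplotlib 3.10.9 in Python 3.11.15. Some genes are not reported by name here.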

Additional observations from a re-analysis of the deposited data

Results flagged for a closer look

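Of all 13023 tested genes limma's interaction test called 17.9% higher and 35.2% in either direction. By the same test the heat change of the ribosomal protein genes differed between the genotypes for 44 of the 78 tested members, each higher in CHIP-KO. Among the members named with values these were Rpl21 at 1.12, Rps2 at 0.999, Rpl7a at 0.933, Rps12 at 0.824, Rpl12 at 0.793, Rpl41 at 0.686, Rpl22l1 at 0.632, Rpl11 at 0.626, Rplp1 at 0.614, Rplp2 at 0.585, Rps25 at 0.575, Rps6 at 0.519, Rps4x at 0.49, Rpl3 at 0.487, Rps27l at 0.428, Rps3 at 0.426 and Rpl5 at 0.378 on the log2 scale. Of these 17, all but Rpl21 and Rps27l were called with any 1 library left out.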

How the results depend on the processing

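Counts of called members were 29 (heat in wild type), 39 (heat in CHIP-KO), 32 and 35 (CHIP-KO against wild type without and after heat) and 44 (interaction). In the same order these were 37.2%, 50%, 41%, 44.9% and 56.4% of members, against 58.7%, 20%, 48.5%, 42.4% and 35.2% of all tested genes. Shares of all genes are not given for the counts below, so whether those moved with all genes is not shown here. Quantile normalization gave 45, 9 and 29 for both heat changes and the interaction, and an equal sum per library 57 and 11 for both heat changes. An equal sum over protein-coding rows gave 12, and no filter 23, for heat in CHIP-KO. The groups of the comparison alone gave 17 and 65 for the heat changes. Library weights gave 70 for heat in CHIP-KO and 51 and 55 for the genotype differences, and both wild-type replicates 1 left out gave 68 for heat in CHIP-KO and 50 for the unheated genotype difference. The causes of these moves were not tested. Leaving out each library gave 23 to 35, 13 to 61, 25 to 40, 30 to 44 and 34 to 53. The replicate number as a block gave 29, 36, 32, 36 and 41. As a replicate block within genotype it gave 24, 27 and 37 for both heat changes and the interaction, and 2 of 16, 7 of 13 and 3 of 17 named calls were lost. The numbers did not pair libraries throughout: 18 same-number pairs had correlations of deviations from -0.12 to 0.335, and 4 of 12 libraries correlated best with their own number. The highest were between heated wild type and heated CHIP-KO, 0.335 for replicates 1 and 0.231 for replicates 3, beside 0.0207 for replicates 2. Whether those libraries were handled together was not tested. Signs turned for Rpl22 in wild type (-0.00618, equal sum), and for heat in CHIP-KO under quantile normalization for Rplp1 (-0.137), Rps4x (-0.00333) and Rps14 (-0.0781) and with an equal sum for Rplp1 (-0.0559), Rplp2 (-0.0620), Rpl5 (-0.0642), Rpl11 (-0.00375), Rpl3 (-0.0287), Rpl22 (-0.0353), Rps4x (-0.0435) and Rps14 (-0.0759). Of all settings for named members, 1671 kept call and direction, 170 lost the call and 12 turned. FPKM are relative values, and the direction of the heat change in CHIP-KO depends on the scaling. Median-of-ratios size factors gave 39 higher and 0 lower for heat in CHIP-KO, as in the deposited values, which thus already stood near that scaling.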
